A study of Mus musculus with 4 samples.

Results

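The genes described here are 42 cell cycle genes: enzymes and substrates of mitosis, DNA replication factors, cyclins with their kinases, and CDK inhibitors. They were chosen by name, Ube2s among them because its ratio was already known to be high, and all 42 were measured, out of 18579 measured genes. The samples were mouse embryos at the early headfold stage (~E7.75) from the NotoGFP strain on an Sv129/CD-1 hybrid background, in which GFP is inserted into the node and notochord homeobox gene Noto. One group was homozygous (Noto GFP/GFP) and the other heterozygous (Noto GFP/+), so both carried the insertion and no wild-type embryo was analysed here. The distal pieces holding the ventral node were pooled by 120 to 150 (the labels give their size in different ways), and 1 RNA pool of each genotype was hybridised with the other on an Agilent 2-colour array. The same pair was then run on another array with swapped dyes, which the labels count as technical replication, so there are 4 samples on 2 arrays. The homozygote carried Cy5 on array 1 and Cy3 on array 2. The series is about targets of FOXJ1, a transcription factor of motile cilia, in node and airway.

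The cell cycle alternates DNA synthesis with mitosis, and its gene products are made in waves. In G1, D-type and E-type cyclins with their kinases drive entry into DNA synthesis, in which the MCM helicase and the sliding clamp act on DNA. CDK inhibitors of the Cip/Kip family hold that entry back. In mitosis, kinetochores attach chromosomes to the spindle and the checkpoint kinases delay anaphase until all are attached. The anaphase-promoting complex, a ubiquitin ligase, then marks cyclin B and securin for destruction with UBE2C starting and UBE2S extending the ubiquitin chains. The gastrulating mouse embryo divides fast, whereas the pit cells of the node are known to leave the cycle and to carry a cilium.

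Both Ube2s probes are shown because the main result rests on them. The array files place the brighter probe, A_51_P261689, at chr9:56236390-56236441 and the other, A_51_P188782, at chr7:4411223-4411282 on the minus strand, both on build mm8. The RefSeq table (assembly GRCm38.p6) places Ube2s on chromosome 7. The 2 probes share a run of 52 of their 60 letters, so they are not separate measurements of different transcript regions. Each holds a reading frame that ends in a stop codon, in capitals, followed by 19 and 27 letters.
A_51_P188782: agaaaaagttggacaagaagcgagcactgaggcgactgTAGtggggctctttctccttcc
A_51_P261689: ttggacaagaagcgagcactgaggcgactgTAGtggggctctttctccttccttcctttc
The file's position for A_51_P261689 spans 52 bases, fewer than the 60 letters of the probe. RNA from another near-identical copy of Ube2s could not be told from that of Ube2s with these probes.

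Of the 42 genes, 1 was called higher in the homozygote, Ube2s, and 0 were called lower. A gene is called when array 1 and array 2 both put its ratio of homozygote over heterozygote past 1.5-fold (a log2 ratio of 0.58) and on the same side. Over all measured genes the rule called 11 higher, which is 0.0592%, and 434 lower, which is 2.34%, or 445 in either direction (2.4%). With 1 pool per genotype there is no biological replicate, so no significance test was made, and each ± below is the SD over 2 arrays of the same RNA. Ratios lay above 0 on both arrays for 16 of the 42 genes, below 0 on both for 8, and had opposite signs on the 2 arrays for 18. Over all measured genes these shares were 25.7%, 34.0% and 40.3%. The median log2 ratio of the 42 genes was 0.05 ± 0.05, beside -0.02 ± 0.01 over all genes. RNAs spiked in at known ratios had log ratios of 0.809 (array 1) and 0.705 (array 2) times those they were designed to have. The software that read the arrays fitted these slopes on its own log ratios, so those were compressed. No such slope was fitted for the ratios given here.

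**Figure D1:**
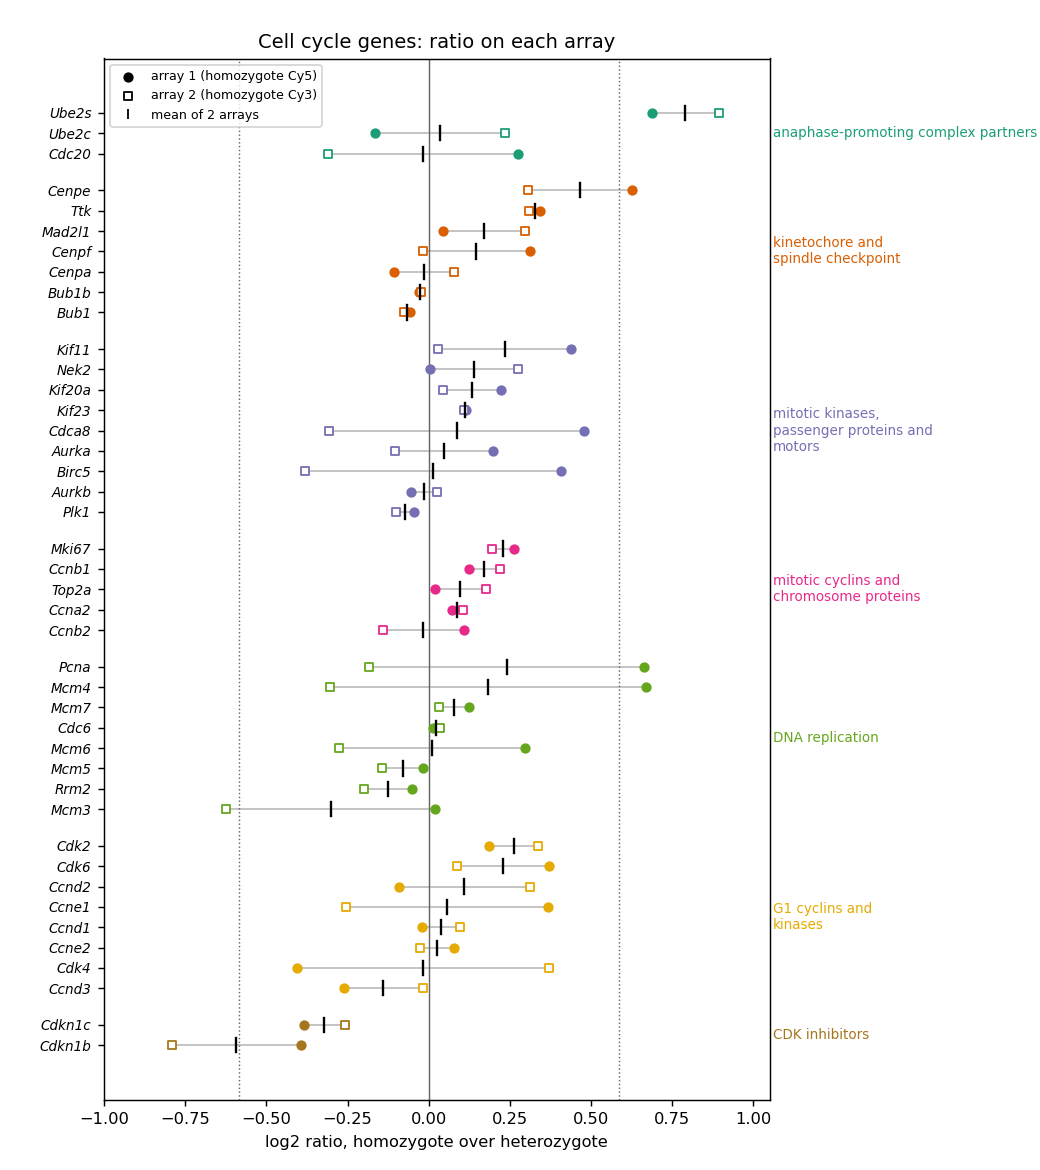
Log2 ratio of homozygote over heterozygote for the 42 genes, grouped by role and sorted by their mean; circles are array 1, open squares array 2, and the short bar is the mean. Dotted lines mark 1.5-fold. Ube2s alone lies beyond the right-hand line on both arrays, at 0.69 and 0.89, and for 18 genes the circle and the square lie on opposite sides of 0.

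Ube2s, which encodes the ubiquitin-conjugating enzyme that extends chains on substrates of the anaphase-promoting complex, had the highest ratio of the 42 genes. Its normalised log2 intensity was 16.00 in the heterozygote and 16.68 in the homozygote on array 1, and 15.94 and 16.83 on array 2. Both homozygous values lie above both heterozygous ones, and the 2 runs of each pool differ by less than the genotypes do. How many of all genes separate in this way was not counted, here or for the genes below. The log2 ratios were 0.69 and 0.89, with a mean of 0.79 ± 0.15, or 1.73-fold. The overlapping probe A_51_P188782 gave 0.56 and 0.998, with a mean of 0.78, and so missed the rule on array 1. Ube2s ranked 7 from the highest of 18579 genes and 1 among the 1858 brightest. There the rule called 1 gene higher (0.0538%), which was Ube2s itself, and 2 lower (0.108%). Because Ube2s was chosen with its high ratio already known, its rank and its call only describe it and are no independent support. As red over green its mean log2 ratio was -0.10. With 1 pool of each genotype, genotype and pool cannot be told apart.

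Its partners at the anaphase-promoting complex did not share that ratio. Ube2c, the enzyme that starts the chains, read 15.74 in the heterozygote and 15.58 in the homozygote on array 1, and 15.44 and 15.68 on array 2. The genotypes overlap, and the log2 ratios of -0.16 and 0.24 average 0.04 ± 0.28. Cdc20, the activator that brings substrates to the complex in early mitosis, read 17.40 and 17.67 on array 1 and 17.56 and 17.25 on array 2. Here too the genotypes overlap, with a mean ratio of -0.02 ± 0.41. The median of the 3 mean ratios was 0.04, below the group's medians of 0.28 on array 1 and 0.24 on array 2, since a median of means can lie outside the medians on each array. A list of 31 other genes, all measured, held subunits and regulators of the complex along with genes of SCF, another ubiquitin ligase of the cell cycle. Of these, 0 were higher and 0 lower, and the median was 0.032, beside 0.057 on array 1 and 0.046 on array 2. Farthest from 0 were Cul1 (0.31 ± 0.05), the cullin of SCF and no subunit of the anaphase-promoting complex, and Anapc1, the largest scaffold subunit of that complex (0.28 ± 0.05), both above 0 on both arrays. The securin gene Pttg1, whose product the complex destroys at anaphase, read -0.25 ± 0.18, and the separase gene Espl1 0.22 with the same value on both arrays.

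**Figure D2:**
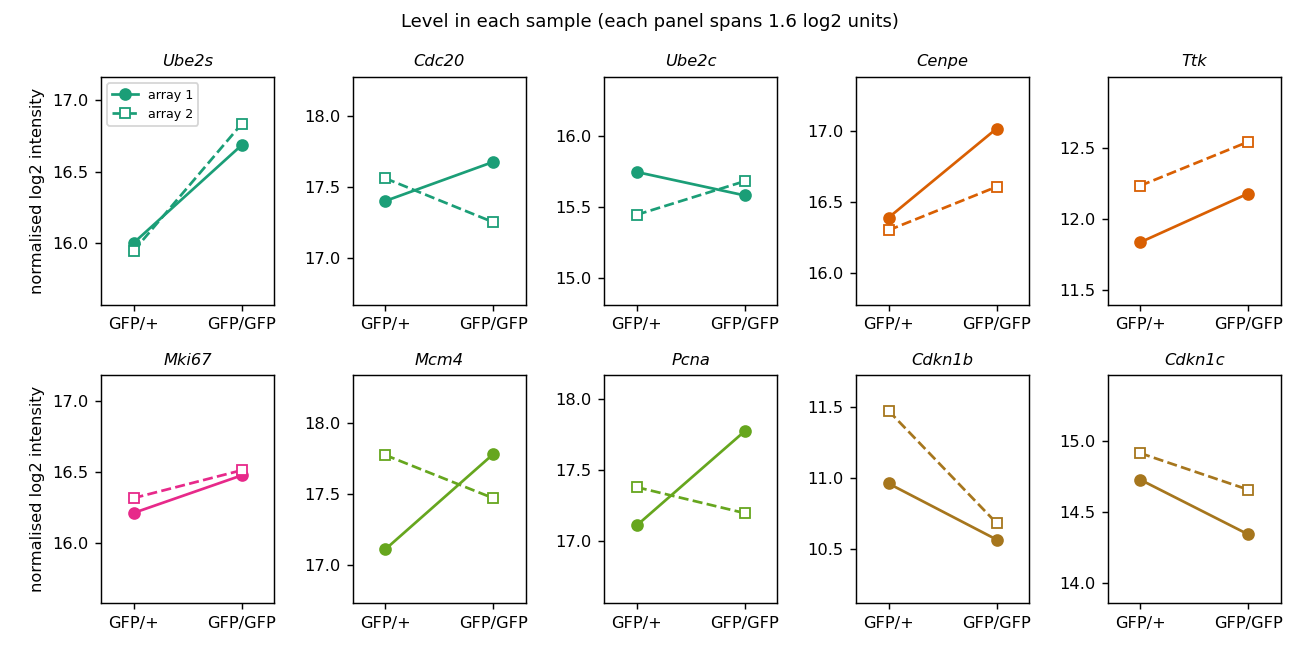
Normalised log2 intensity of 10 of the genes in each of the 4 samples; each line joins the 2 genotypes on 1 array (filled circles array 1, open squares array 2), and each panel spans the same range. Lines rise on both arrays for Ube2s, Cenpe, Ttk and Mki67, fall on both for Cdkn1b and Cdkn1c, and cross for Cdc20, Ube2c, Mcm4 and Pcna.

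Among the 7 kinetochore and spindle checkpoint genes, 0 were called and 3 had ratios above 0 on both arrays. Cenpe, which encodes the kinetochore motor that moves chromosomes to the spindle equator, read 16.39 and 17.02 on array 1 and 16.30 and 16.61 on array 2, heterozygote first. Both homozygous values exceed both heterozygous ones, with ratios of 0.63 and 0.31 and a mean of 0.47 ± 0.23, so the gene missed the rule on array 2. Its 2 other probes read 0.27 and 0.21, and the dimmest of the 3 was at -0.03 on array 1. The Cenpe probe at 0.27, A_51_P164021, is shown because it holds an open frame over its whole length and reads the gene away from the brightest probe.
Cenpe A_51_P164021: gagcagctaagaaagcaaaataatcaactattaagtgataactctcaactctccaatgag
Ttk, the kinase that starts checkpoint signalling and is also called MPS1, read 11.84 and 12.18 on array 1 and 12.24 and 12.54 on array 2. Its ratios of 0.34 and 0.31 differ little between arrays and average 0.33 ± 0.02, although the heterozygote of array 2 lay above the homozygote of array 1. Mad2l1, whose protein inhibits CDC20, had a mean of 0.17 ± 0.18, and the outer kinetochore gene Cenpf 0.15 ± 0.23. Bub1 (-0.07 ± 0.01) and Bub1b (-0.03 ± 0.01), both spindle checkpoint genes, and the centromeric histone Cenpa (-0.01 ± 0.13) had ratios near 0. The median of the 7 mean ratios was 0.15, above the group's medians of 0.043 on array 1 and 0.078 on array 2.

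The 9 genes of mitotic kinases, chromosomal passenger proteins and spindle motors had a median of 0.09 ± 0.12 and 0 calls. Kif11, the motor that separates the spindle poles, had the highest mean at 0.23 ± 0.29, with 0.44 on array 1 and 0.03 on array 2. Its 2 other probes read 0.42 and -0.14. The cytokinesis motors Kif20a (0.13 ± 0.13) and Kif23 (0.11) and the centrosome kinase Nek2 (0.14 ± 0.19) were above 0 on both arrays. Polo-like kinase Plk1 read -0.07 ± 0.04, Aurka 0.05 ± 0.21 and Aurkb -0.01 ± 0.06. The passenger genes Cdca8 (0.48 and -0.31) and Birc5 (0.41 and -0.38), which encode borealin and survivin, had opposite signs on the 2 arrays, with means of 0.09 and 0.01.

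Of the 5 mitotic cyclin and chromosome genes, 4 had ratios above 0 on both arrays and none was called. Mki67, the proliferation antigen that coats mitotic chromosomes, read 16.21 and 16.48 on array 1 and 16.32 and 16.52 on array 2. Both homozygous values lie above both heterozygous ones, with a mean ratio of 0.23 ± 0.05, or 1.17-fold, and a second probe gave 0.31. Ccnb1, the main mitotic cyclin, averaged 0.17 ± 0.07, and its 3 probes ranged from 0.17 to 0.22. Top2a, the topoisomerase that untangles sister chromatids, read 0.10 ± 0.11 with its 2 dimmer probes at -0.10 and -0.23. Ccna2 read 0.09 ± 0.02 and Ccnb2 -0.02 ± 0.18. The median of the 5 mean ratios was 0.10, below the group's medians of 0.11 on array 1 and 0.18 on array 2. Over 59 other kinetochore, spindle and cytokinesis genes, 0 were higher and 0 lower, with 22 above and 13 below 0 on both arrays and a median of 0.06 ± 0.04. The farthest from 0 were Cenpk, a centromere component, at -0.32 ± 0.18 and Ncapd2, a condensin subunit, at 0.27 ± 0.06.

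The 8 DNA replication genes had a median of 0.02 ± 0.19, which was 0.07 on array 1 and -0.19 on array 2, and 0 were called. Only Mcm7 (0.08 ± 0.07) and the origin licensing factor Cdc6 (0.02 ± 0.01) were above 0 on both arrays. Mcm5 (-0.08 ± 0.09) and the ribonucleotide reductase subunit Rrm2 (-0.12 ± 0.10) were below 0 on both. The other 4 had opposite signs. Mcm4, a helicase subunit, read 17.11 in the heterozygote and 17.78 in the homozygote on array 1, but 17.77 and 17.47 on array 2. Pcna, the sliding clamp, read 17.11 and 17.77 on array 1 and 17.38 and 17.20 on array 2. In both genes the genotypes overlap, and the means of 0.18 ± 0.69 and 0.24 ± 0.60 are smaller than the spread over arrays. Mcm3 read -0.30 ± 0.45 and Mcm6 0.01 ± 0.40. A second Mcm3 probe gave 0.09. Of 46 other replication genes 0 were higher and 0 lower, and their median was 0.02 ± 0.05. The primase subunit gene Prim2 lay farthest from 0 at 0.54 ± 0.23, with 0.70 and 0.37 on the 2 arrays, followed by the DNA polymerase gene Pole at 0.34 ± 0.05.

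Of the 18 genes with opposite signs, 12 read red over green on both arrays and 6 read green over red. Brightness moved with the red over green ones. Of the 42 genes, 24 (57.1%) lay among the 1858 brightest measured genes. At a mean log2 brightness of 17 or more, a limit chosen after seeing the data, there were 13 of them, and 9 of these 13 read red over green on both arrays. The same held for 75.2% of all 387 genes of that brightness, whose median ratio of red over green was 0.29. The 13 include Mcm3, Mcm4, Mcm6, Pcna, Ccne1, Cdc20, Cdca8, Birc5 and Aurka, the 9 in question. The 6 genes that read green over red, Cdk4 and Ube2c among them, all lay below that limit. Below that limit 3 of 29 read red over green on both arrays, and 14 of 29 were above 0 on both. Over all measured genes of any brightness these shares were 21.1% and 25.7%, and among genes brighter than the median 23.2% and 24.5%. No share was counted for genes as bright as these 29 and below the limit. Setting the 9 genes apart by itself raises the share above 0 among the rest. The exchange of dyes cancels a red over green ratio in the mean of the 2 arrays only where it is equal on both. Over the 387 genes the median ratio of homozygote over heterozygote was 0.21 on array 1 and -0.36 on array 2. Their median of means was -0.08, beside -0.02 over all genes. Whether dye or genotype set this value was not tested. By the mean of the 2 arrays, a rule added after seeing the data, Ube2s was 1 higher gene (background 0.178%) and Cdkn1b 1 lower gene (background 3.42%). At 1.3-fold on each array the same 2 genes passed, beside 0.635% of all genes higher and 4.92% lower.

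**Figure D3:**
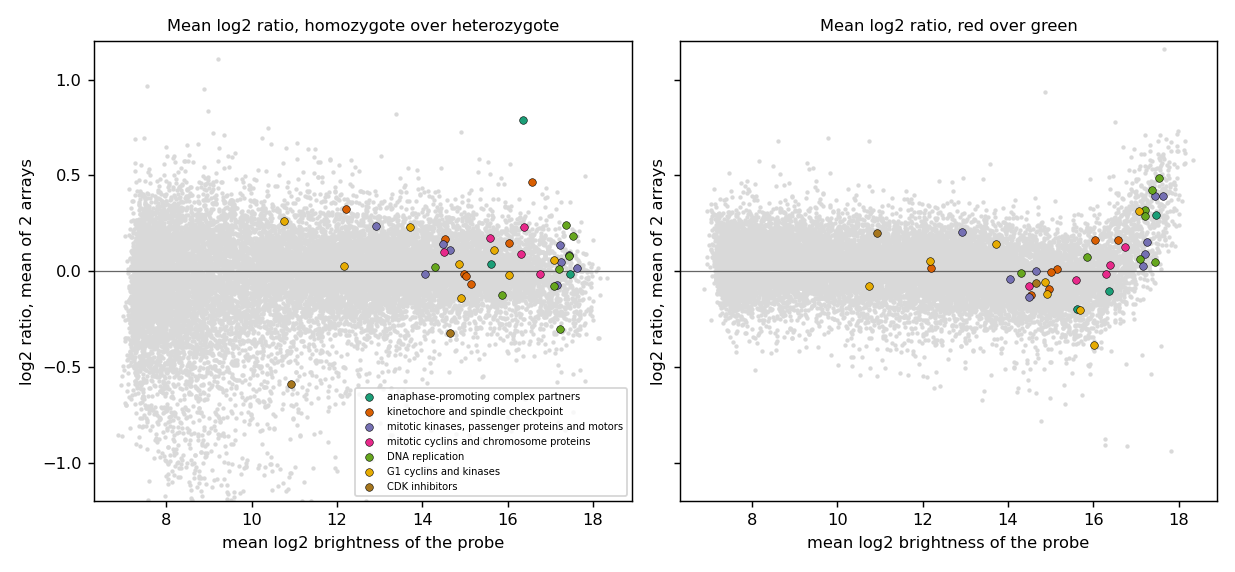
Mean log2 ratio of each gene against the mean log2 brightness of its probe, as homozygote over heterozygote (left) and as red over green (right); grey points are all measured genes within the axes, and coloured points the 42 genes by role. On the right the brightest genes climb above 0, with a median of 0.29 at a brightness of 17 or more, and on the left Ube2s lies at 0.79.

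**Figure D4:**
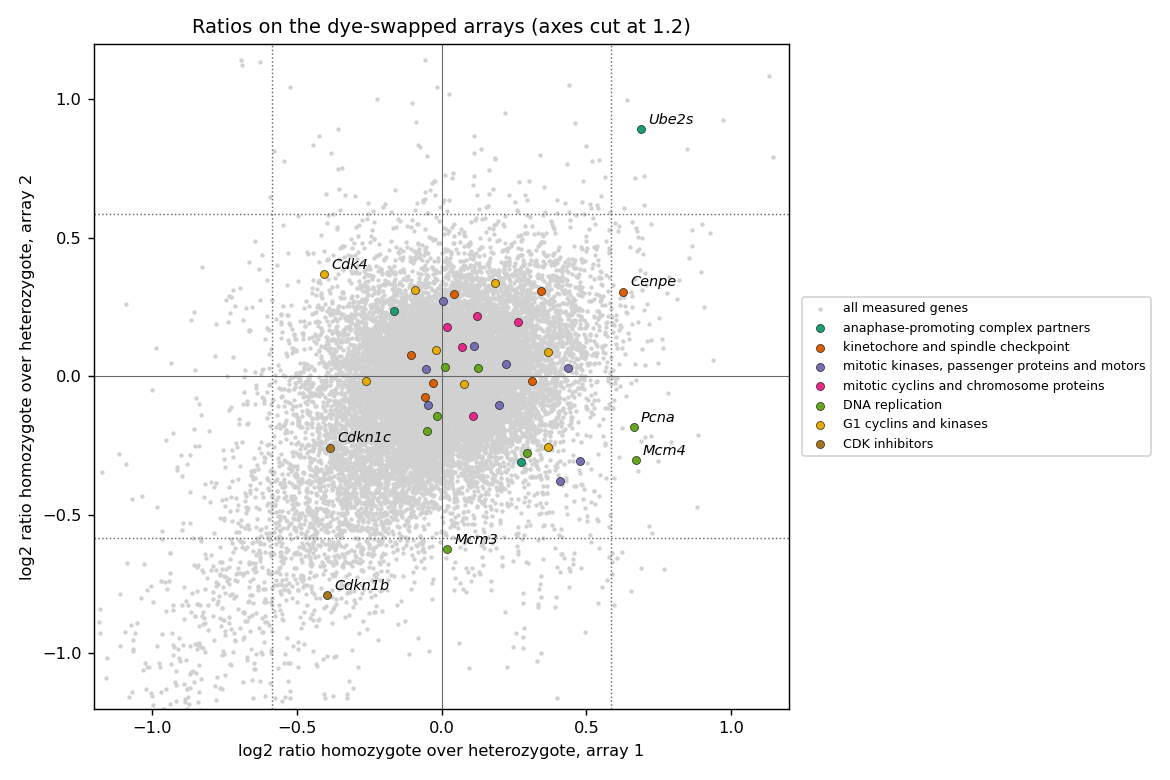
Log2 ratio of homozygote over heterozygote on array 1 (horizontal) and array 2 (vertical) for all measured genes (grey, axes cut at 1.2) and the 42 genes by role; dotted lines mark 1.5-fold. Ube2s is the coloured point in the upper right corner, Cenpe passes the line on array 1 alone, and Mcm4 and Pcna lie to the lower right, where ratios follow the dye.

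Of the 8 G1 cyclins and kinases 0 were called, and the median was 0.05 ± 0.04. Cdk2, the partner of cyclins E and A, read 0.26 ± 0.11 and Cdk6, a partner of D-type cyclins, 0.23 ± 0.20, both above 0 on both arrays. Their other probes went down to -0.08 for Cdk2 and -0.10 for Cdk6. Ccnd3 read -0.14 ± 0.17, below 0 on both arrays. Cdk4 had opposite signs, -0.41 on array 1 and 0.37 on array 2, and so did Ccne1 (0.37 and -0.26), Ccnd2 (-0.09 and 0.31), Ccnd1 (-0.02 and 0.10) and Ccne2 (0.08 and -0.03). The 3 Ccnd2 probes ranged from 0.01 to 0.11 in their means. Among 21 genes of E2F factors, pocket proteins and other cell cycle transcription factors, 0 were higher and 0 lower, with a median of 0.01 ± 0.07. Of these, E2f2 (-0.33 ± 0.09) and Mycn (-0.21 ± 0.25) lay farthest from 0.

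Both CDK inhibitors had ratios below 0 on both arrays, the reverse of Ube2s and Cenpe, and neither was called. Cdkn1b, a Cip/Kip inhibitor of CDK2 complexes, read 10.96 in the heterozygote and 10.57 in the homozygote on array 1, and 11.47 and 10.68 on array 2. Both homozygous values are the lower ones, with ratios of -0.39 and -0.79 and a mean of -0.59 ± 0.28, short of the rule on array 1. That value rests on 1 probe, at chr6:134890890-134890949 (mm8), which the file ties to a cDNA clone accession. A probe that starts 4112 bases before it, and that the file ties to the RefSeq transcript, read 0.03, with -0.16 and 0.22 on the 2 arrays. It was spotted 10 times on each array, was dimmer (mean log2 brightness 8.40 against 10.92), and is shown because it disagrees.
Cdkn1b A_51_P169173: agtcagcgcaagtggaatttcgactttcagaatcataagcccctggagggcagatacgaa
Another Cdkn1b probe was not measured. Cdkn1c, the imprinted member of the family, read 14.73 and 14.35 on array 1 and 14.92 and 14.66 on array 2. Both homozygous values lie below both heterozygous ones, with ratios of -0.39 and -0.26 and a mean of -0.32 ± 0.09 on its 1 probe. The 6 other inhibitor genes had no call (0 higher, 0 lower), with Cdkn2b, an INK4 inhibitor of CDK4 and CDK6, at 0.32 ± 0.19 and Cdkn2d at -0.26 ± 0.48. Cdkn1a, the other Cip/Kip gene and a p53 target, read -0.09 ± 0.25.

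In 19 of the 42 genes at least 2 probes were measured, and the median gap between the highest and the lowest was 0.13, beside 0.17 over the 6477 such genes on the array. Taken between means of the 2 arrays, the gap was 0.05 for Ccnb1 and 0.08 for Mki67. For the 2 overlapping Ube2s probes, which are not separate measurements, the gap was 0.01. It was widest for Cdkn1b at 0.62, Kif11 at 0.56 and Cdca8 at 0.46, followed by Mcm3 at 0.39, Cdk2 at 0.34, Cdk6 and Top2a at 0.33 and Cenpe at 0.26.

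**Figure D5:**
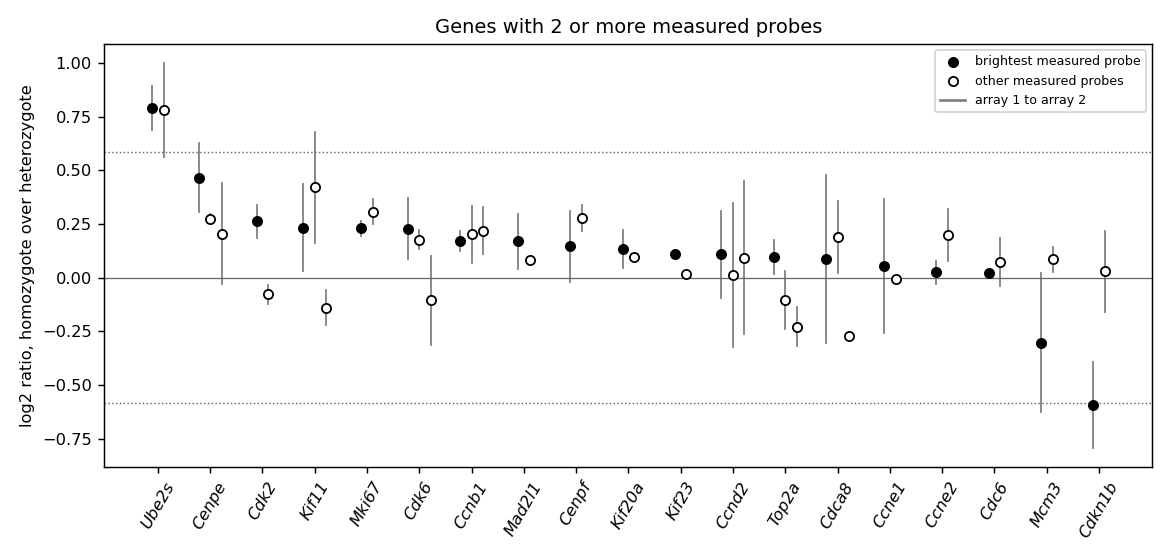
Mean log2 ratio of homozygote over heterozygote for every measured probe of the 19 genes with at least 2; filled circles are the brightest probe, open circles the others, and bars run from array 1 to array 2. Dotted lines mark 1.5-fold. Both Ube2s probes lie above the upper line in their means, and the Cdkn1b probes at -0.59 and 0.03 lie far apart.

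Upstream sequence was not used to choose the genes, and its motifs are given as counts with no test. RefSeq windows (build GRCm38.p6) of 250 bases before to 50 after the start were matched for 34 of the 42 by symbol. The cell cycle genes homology region (CHR), a site for the MuvB complexes that time mitotic genes, was searched on both strands as TTTGAA and, in its variant form, as TTCGAA. It was found in 16 of the 21 matched genes of the 4 mitotic groups, in 1 of 7 replication genes and in 0 of 5 G1 genes, beside 21.7% of all 27025 genes with a window. The E2F site, which times S-phase genes, was searched on both strands as TTCCCGC and in 3 variant forms, which are TTGGCGC, then the form TTCGCGC and last the form TTGCCGC. Matches of these forms can overlap. It was found in 6 of 7 replication genes and 2 of 21 mitotic genes, beside 10.9% of all genes. A CCAAT box, the site of NF-Y, was found in 27 of the 34 matched genes beside 41.1% of all, with 18 of 21 in the mitotic groups, 6 of 7 in replication and 2 of 5 in G1. Windows of 60 bases upstream of the start, matches in capitals, show CHR matches in 3 partners of the anaphase-promoting complex and E2F matches in 2 helicase genes.
Ube2s, chr7:4812470-4812529, minus strand: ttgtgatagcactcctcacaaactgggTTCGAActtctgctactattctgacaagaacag
Ube2c, chr2:164769869-164769928, plus strand: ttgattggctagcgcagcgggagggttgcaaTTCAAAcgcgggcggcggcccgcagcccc
Cdc20, chr4:118437344-118437403, minus strand: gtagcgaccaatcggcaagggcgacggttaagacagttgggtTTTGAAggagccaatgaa
Mcm5, chr8:75109333-75109392, plus strand: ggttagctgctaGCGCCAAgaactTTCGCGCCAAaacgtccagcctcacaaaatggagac
Mcm6, chr1:128359716-128359775, minus strand: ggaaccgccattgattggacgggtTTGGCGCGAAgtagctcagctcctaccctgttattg
The match began 29 bases before the start in Ube2c and 18 in Cdc20 but 162 in Ube2s, whose window held no CCAAT box and no E2F match. Cenpe had a CCAAT box and no CHR match. A match is only a run of letters, and binding was not measured here.

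Markers of other cell types and of the node were counted on the same arrays, and their normalised intensities summed on the linear scale, heterozygote first. The rule called 0.0592% of all measured genes higher and 2.34% lower. Of the decidual list 6 of 8 were measured and 1 was higher, Prl8a2 (1.11 ± 0.03), with a summed intensity of 2913 and 3152 in the heterozygote and 3615 and 3415 in the homozygote. Of the blood list all 8 were measured and 2 were lower, Hbb-bt (-1.36 ± 0.07) and Hba-a1 (-1.05 ± 0.18), with sums of 17722 and 13741 against 10552 and 8672. Of 8 trophoblast markers 5 were measured and none was called, with sums of 15393 and 14536 against 13314 and 10752; Plet1 (-0.53) and Prl3d1 (0.36) lay farthest from 0. All 8 yolk sac and visceral endoderm markers were measured, 0 were called, and Cubn (0.24) and Apob (0.21) lay farthest from 0, with sums of 201289 and 169023 against 187661 and 180028. Of 10 node and notochord markers 9 were measured and 0 were called. Ratios lay below 0 on both arrays for 5 of the 9 and above 0 on both for 2, beside 34.0% and 25.7% of all genes. Foxd4 (-0.57 ± 0.09) and Foxj1 (-0.52 ± 0.09) lay farthest from 0, and the highest mean was 0.33. Their sums were 139118 and 128251 against 132181 and 139959 over the 9 markers. The part of these cell types in the ratios of the 42 genes was not tested. In pooled tissue, fewer cells of a type and less RNA per cell cannot be told apart.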

How the data were processed

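Per the file headers, the authors scanned 2 Agilent 2-colour arrays and read them with Feature Extraction 9.5.3.1 (also in the submitters' processing notes), which wrote foreground and background intensity, processed intensity and, as log10, the red to green ratio; flags (unit other) were deposited with them. Paired samples' files are identical, so each array counts once. The authors' deposited value table holds intensity: each column equals its dye's processed intensity multiplied by 1.07 on array 1 and 1.28 on array 2, with a minimum of 15 and medians of 110.6 and 109.6, and 96.2 and 95.1; how it was scaled is not given in the sources used here.

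limma 3.58.1 in R 4.3.3 applied normexp (offset 50) and loess within arrays, controls at weight 0; 179 and 165 outlying spots were left out. Array 2 was turned. Levels are loess and Aquantile values. Of 41174 probes, 27734 were measured: well above background in 1 genotype on both arrays. Each gene took its brightest measured probe. RefSeq accessions and symbols named 33116 probes. Well above background were 64.0% to 81.5% of gene spots per channel; 0 were saturated. The pipeline was tested on simulated data. Python 3.11.15, numpy 2.4.6, pandas 2.3.3 and matplotlib 3.10.9 made summaries and plots.

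The members and lists were chosen with earlier results of these data known. Named genes are all 42, and of each list the called members, or those farthest from 0; other probes of a gene where they differ from the brightest by at least 0.58. Pttg1, Espl1, Cdkn1a and the probes nearer than that were added after their values were seen. Noto was not analysed here.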

Additional observations from a re-analysis of the deposited data

How the results depend on the processing

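No paired analysis was possible because, with 1 pool per genotype, nothing here was tested; each ratio already sets both genotypes of 1 array against each other. With median centring in place of loess, 0 genes were called higher, since Ube2s read 1.66 and 0.30 (mean 0.98), and the median of all genes moved from -0.02 to 0.12. The role medians then read 0.25 (anaphase-promoting complex), 0.33 (kinetochore), 0.28 (kinases and motors), 0.30 (mitotic cyclins), 0.20 (replication), 0.24 (G1) and -0.28 (inhibitors). The kinetochore median was 0.18 with the software's log ratios and with the value table, and the inhibitor median -0.30 with the mean of probes. With at least 1.3-fold on each array, or 1.5-fold in the mean, 1 gene was lower (Cdkn1b). Ube2s passed the rule with the value table, the mean of probes, both other filters, uncorrected background, the software's log ratios and loess with a narrower span (0.1 in place of 0.3). With the software's log ratios and with the value table it passed only narrowly, at 0.589 on array 1. Those 2 settings called 101 and 95 of all genes higher, beside 11 in the main setting. The span and the rule on the mean were added after the data had been seen. With either array alone, calls ranged from 1 to 4 higher (Ube2s, Cenpe, Mcm4 and Pcna on array 1) and 0 to 2 lower (Mcm3 and Cdkn1b on array 2), and Ube2s from 0.69 to 0.89. Over all 18579 genes, 124 were then called higher and 643 lower on array 1 alone, and 112 and 944 on array 2 alone. The role medians ranged from 0.24 to 0.28 (anaphase-promoting complex), 0.043 to 0.078 (kinetochore), 0.03 to 0.20 (kinases and motors), 0.11 to 0.18 (mitotic cyclins), -0.19 to 0.073 (replication), 0.028 to 0.091 (G1) and -0.52 to -0.39 (inhibitors). The cause of these shifts was not tested. Of the other 41 genes, 25 moved by more than their SD with median centring. Precision is limited by having a single pool of each genotype on 2 technical arrays. The software's log ratios were compressed, and compression of the ratios used here was not measured.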
